A study of Mus musculus with 10 samples.

Results

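The genes Dnmt1, Uhrf1, Dnmt3a, Dnmt3b and Mbd1 of the DNA methylation machinery were followed across RNA sequencing libraries from the mouse cortex at embryonic day 12. They were taken by symbol, as 5 of the 24814 genes of the deposited table. The 10 libraries of polyadenylated RNA fell into cKO (n = 5), with Emx1 Cre/+ and Zbtb7a fl/fl, and WT (n = 5), with Emx1 Cre/+ and Zbtb7a +/+. Every embryo therefore carried the Cre allele, and the groups differ in the floxed Zbtb7a alleles. Emx1-Cre acts in progenitors of the dorsal telencephalon and their progeny, so cells of other lineages in the dissected tissue keep Zbtb7a. The labels give the litter as the batch: litter 3 gave cKO 4, WT 3 and WT 4, litter 5 gave cKO 5 and WT 5, and litter 1 gave cKO 1, cKO 2, cKO 3, WT 1 and WT 2. Values are TPM, transcript abundances scaled for transcript length and for the library total, and the read depth behind them is unknown.

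In mammals DNA methylation is carried mainly by the cytosine of CpG dinucleotides. Dnmt3a and Dnmt3b set the mark on unmethylated DNA. Dnmt1 copies it onto the new strand behind the replication fork, where Uhrf1 recognises hemimethylated CpG and recruits Dnmt1. Readers with a methyl-CpG binding domain, Mbd1 among them, bind the mark and bring in repressors. In the mouse nervous system Dnmt3b is known mainly from early precursors, Dnmt3a from later progenitors and neurons, and Dnmt1 is needed for dorsal progenitors to give healthy cortical neurons.

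RefSeq promoters on GRCm38.p6 were matched for 4 of the 5 genes, Mbd1 being the exception. They are shown because in TPM as deposited Dnmt1, Uhrf1 and Dnmt3a varied together over the libraries and Dnmt3b did not. RefSeq lists 9 windows at alternative starts of these genes, and the one richest in CpG is printed for each, with any other that held a motif. Each run gives the 250 bases before an annotated start, 5′ to 3′ on the strand of the gene. The windows are chr9:20952624-20952873 on the minus strand for Dnmt1, chr17:56303087-56303336 and chr17:56304063-56304312 on the plus strand for Uhrf1, chr12:3806910-3807159 on the plus strand for Dnmt3a, and chr2:153649199-153649448 on the plus strand for Dnmt3b. Capitals mark a match to TTCCCGC or TTGGCGC, letters bound by E2F factors, which are known for driving S-phase genes.
Dnmt1: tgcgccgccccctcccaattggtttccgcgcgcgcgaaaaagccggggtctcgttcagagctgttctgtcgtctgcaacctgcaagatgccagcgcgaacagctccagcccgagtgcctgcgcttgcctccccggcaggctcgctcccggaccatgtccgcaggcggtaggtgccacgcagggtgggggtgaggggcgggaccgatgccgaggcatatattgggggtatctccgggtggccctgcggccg
Uhrf1, upstream start: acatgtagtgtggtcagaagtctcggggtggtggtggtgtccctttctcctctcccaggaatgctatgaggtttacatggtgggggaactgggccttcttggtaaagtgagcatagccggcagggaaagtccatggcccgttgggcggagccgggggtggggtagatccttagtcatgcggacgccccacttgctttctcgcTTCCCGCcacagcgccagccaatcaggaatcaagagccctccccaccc
Uhrf1, internal start: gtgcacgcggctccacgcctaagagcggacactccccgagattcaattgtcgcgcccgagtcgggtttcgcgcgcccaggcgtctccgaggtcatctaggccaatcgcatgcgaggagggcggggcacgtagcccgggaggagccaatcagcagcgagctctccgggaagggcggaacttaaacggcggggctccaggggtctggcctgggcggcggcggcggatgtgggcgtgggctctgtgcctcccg
Dnmt3a: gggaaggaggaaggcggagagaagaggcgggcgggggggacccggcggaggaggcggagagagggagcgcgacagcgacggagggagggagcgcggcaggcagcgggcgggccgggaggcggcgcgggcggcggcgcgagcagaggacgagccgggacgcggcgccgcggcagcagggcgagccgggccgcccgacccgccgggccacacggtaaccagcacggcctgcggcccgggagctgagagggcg
Dnmt3b: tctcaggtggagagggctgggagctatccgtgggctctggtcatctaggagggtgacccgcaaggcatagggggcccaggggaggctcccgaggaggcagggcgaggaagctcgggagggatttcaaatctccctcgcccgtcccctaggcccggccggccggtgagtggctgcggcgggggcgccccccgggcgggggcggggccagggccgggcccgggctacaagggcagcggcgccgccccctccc

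The search covered both strands of 300-base windows, which add the 50 bases after the start. Of the 9 windows of the 4 genes 2 held a match. The upstream Uhrf1 window held TTCCCGC 48 bases before the start, and the internal one held neither motif. The Dnmt1 window shown held TTGGCGC at position 35 after the start, outside the bases printed. This window lies inside the Dnmt1 gene, which begins at 20959888 on the minus strand, so its start is an internal one. The Dnmt1 windows farther upstream held neither motif. The printed Dnmt3a window likewise lies inside its gene. No window of Dnmt3a or Dnmt3b held either motif. No window held more than 1 match, so the motifs could not overlap each other. Either motif was present in 6.81% of 32851 RefSeq windows of this length, TTCCCGC in 4.60% and TTGGCGC in 2.45%. A match describes the letters only. The printed stretches held 26 CpG in Dnmt1, 10 and 30 at the upstream and internal starts of Uhrf1, 40 in Dnmt3a and 21 in Dnmt3b. The median over all windows was 6. Most stretches were printed as the richest in CpG of their gene, so a comparison with this median was largely fixed by the choice. The windows not printed held 2 and 7 CpG in Dnmt1 and 38 and 15 in Dnmt3a.

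The tissue and the labels were checked on other genes. The 8 progenitor markers and 6 neuron markers of the cortex were detected in every library. Zbtb7a had 4.57, 3.52, 4.73, 5.96 and 3.50 TPM in cKO 1 to cKO 5, against 12.5, 11.2, 7.20, 7.46 and 9.54 TPM in WT 1 to WT 5. The genotypes did not overlap, and the gap was narrowest in litter 3. In limma Zbtb7a did not pass over all genes (log2 fold change -0.99, adjusted p = 0.615). Mesenchymal and erythroid markers and the balance of long and short transcripts differed between litters, and their values are given beside the litter results. Sex-linked genes varied as well. Xist, expressed in female cells, had 27.7 ± 29.6 TPM in cKO and 4.09 ± 9.14 TPM in WT (SD, n = 5 each). The Y-linked Ddx3y had 6.22 ± 8.53 TPM in cKO and 13.6 ± 7.64 TPM in WT. By these genes the sexes were mixed and unevenly spread over the genotypes.

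The 5 genes kept the same order of level in 10 of 10 libraries, which was Uhrf1, Dnmt1, Dnmt3a, Mbd1 and Dnmt3b from high to low. Uhrf1 was on average 1.71 times Dnmt1 in TPM within a library, with a range of 1.53 to 1.93. Dnmt1 was 1.29 times Dnmt3a, and here the ratio came as close as 1.03 in 1 library. Dnmt3a was 2.61 times Mbd1 (2.28 to 3.20), and Mbd1 was 5.44 times Dnmt3b (3.21 to 7.48). The order was read from these same libraries, so it is given as a description. Between libraries the TPM ranges overlapped for Uhrf1 and Dnmt1 and for Dnmt1 and Dnmt3a, and did not for the other neighbours.

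Maintenance methylation genes came first in level and did not separate by genotype. Dnmt1 (ENSMUSG00000004099, chromosome 9, 20907209 to 20959888 on GRCm38, minus strand) encodes the maintenance methyltransferase. It had 129.8, 94.0, 136, 77.0 and 67.9 TPM in cKO 1 to cKO 5, against 129.4, 121, 58.4, 62.3 and 98.7 TPM in WT 1 to WT 5. The genotypes overlapped, with the high values of both in litter 1 and the lowest WT values in litter 3. The means were 101 ± 30.7 TPM in cKO and 94.0 ± 32.7 TPM in WT (SD, n = 5 each).

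Uhrf1 (ENSMUSG00000001228, chromosome 17, 56303321 to 56323486, plus strand), the hemimethylated CpG reader, had 207, 160.2, 224, 141 and 123 TPM in cKO 1 to cKO 5, against 197, 199, 108, 121 and 156 TPM in WT 1 to WT 5. Its high and low libraries were largely those of Dnmt1. The means of 171 ± 43.3 TPM in cKO and 156 ± 42.0 TPM in WT differed by less than 1 SD of either group (n = 5 each). A copy, Gm5648, matches 1590 bases of Uhrf1 at 98.3% identity and stood at 2.25 TPM or less. How reads shared between the copies were assigned is not stated, so both values are uncertain by that share.

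Of the de novo enzymes, Dnmt3a was far above Dnmt3b. Dnmt3a (ENSMUSG00000020661, chromosome 12, 3806007 to 3914443, plus strand) had 89.8, 71.8, 90.1, 59.2 and 62.5 TPM in cKO 1 to cKO 5, against 89.1, 82.8, 56.5, 56.1 and 77.3 TPM in WT 1 to WT 5. It again overlapped between genotypes and was low in all 3 libraries of litter 3 and in cKO 5. The means were 74.7 ± 14.7 TPM in cKO and 72.4 ± 15.2 TPM in WT (SD, n = 5 each). Dnmt3b (ENSMUSG00000027478, chromosome 2, 153649450 to 153687730, plus strand) had 4.24, 4.32, 5.95, 7.75 and 5.03 TPM in cKO 1 to cKO 5, against 5.66, 4.82, 3.56, 5.17 and 5.43 TPM in WT 1 to WT 5. The highest value, cKO 4, and the lowest, WT 3, both came from litter 3, and the genotypes overlapped, with means of 5.46 ± 1.45 TPM in cKO and 4.93 ± 0.826 TPM in WT (SD, n = 5 each). Dnmt3c, a rodent copy that matches 1655 bases of Dnmt3b at 93.3% identity, did not exceed 0.07 TPM. The antisense genes Dnmt3aos and Dnmt3bos did not exceed 0.13 and 0.27 TPM, and whether strand was used in counting is not stated.

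Mbd1 (ENSMUSG00000024561, chromosome 18), a reader that binds methylated CpG and recruits histone methyltransferase, had 31.7, 27.0, 28.2, 24.9 and 27.4 TPM in cKO 1 to cKO 5, against 34.3, 31.4, 21.3, 23.7 and 29.2 TPM in WT 1 to WT 5. The cKO values lay inside the WT range. The means were 27.8 ± 2.49 TPM in cKO and 28.0 ± 5.39 TPM in WT (SD, n = 5 each).

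**Figure D1:**
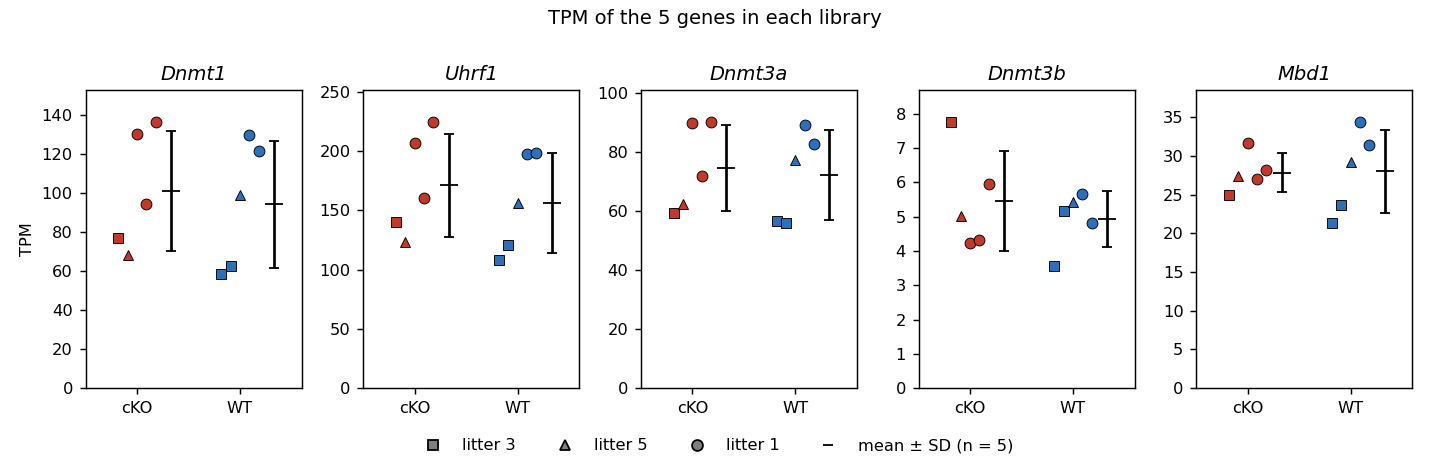
TPM of each gene in each library (y axis, from 0), cKO left and WT right, with the litter given by the symbol and bars for mean ± SD (n = 5 each). Squares of litter 3 sit low in every panel except that of Dnmt3b, where cKO 4 is highest at 7.75 TPM, and cKO and WT overlap in all 5 panels.

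None of the 5 genes was called between cKO and WT in limma with litter and genotype as terms, at a Benjamini-Hochberg adjusted p under 0.05 over 13833 tested genes. The background was low, since 0.0361% of all tested genes were called, 1 gene higher in cKO and 4 lower. On the scale of log2(TPM + 1) the cKO minus WT difference was -0.055 for Dnmt1 (SE 0.14, 95% interval -0.37 to 0.25) and 0.0013 for Uhrf1 (SE 0.11, -0.25 to 0.26). Dnmt3a differed by -0.065 (SE 0.087, -0.26 to 0.13) and Mbd1 by -0.069 (SE 0.090, -0.27 to 0.13). Dnmt3b had the widest interval, 0.13 (SE 0.19, -0.28 to 0.55). The limma adjusted p was 0.99973 for each gene, and the unadjusted p ranged from 0.461 for Mbd1 to 0.991 for Uhrf1. The intervals state which differences these libraries leave possible, and a p above the threshold does not show that the genotypes are alike. Permuting the 10 libraries between genotypes, exact two-sided permutation tests gave p = 0.659 for Dnmt1, 0.548 for Uhrf1, 0.770 for Dnmt3a, 0.563 for Dnmt3b and 0.952 for Mbd1, where the smallest possible p is 0.00794. Within litters, over 60 arrangements, the exact permutation p was 0.767, 1, 0.517, 0.567 and 0.400 in the same order of genes, where the smallest possible is 0.0167.

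Within single litters the genotype difference took different signs. In litter 3, where cKO 4 was set against WT 3 and WT 4, the cKO minus WT log2 difference was 0.35 for Dnmt1, 0.30 for Uhrf1, 0.072 for Dnmt3a, 0.72 for Dnmt3b and 0.14 for Mbd1. In litter 5, where cKO 5 was set against WT 5, it was -0.53 for Dnmt1, -0.34 for Uhrf1, -0.30 for Dnmt3a, -0.093 for Dnmt3b and -0.088 for Mbd1. These 2 libraries also differed in tissue markers. In cKO 5 and WT 5 the neuron sum was 826.5 and 1540 TPM, and that of choroid plexus and hem was 782 and 288 TPM. The ventral telencephalon sum was 20.8 and 163 TPM, while erythroid genes were alike at 2.32% and 2.30%. They differed in the balance of long and short transcripts as well. The correlation of a library's deviation with log2 transcript length, described below, was -0.350 in cKO 5 and 0.0620 in WT 5. With the length trend removed Dnmt3a, Dnmt3b and Mbd1 were higher in cKO 5 than in WT 5, with values in the closing sections. The parts of tissue content and transcript length in the difference were not tested. In litter 1, with 3 cKO and 2 WT libraries, all 5 lay between -0.18 and -0.020. The difference between these effects, litter 3 minus litter 5, was fitted in limma with an effect per litter, an analysis added after the opposite signs were seen. With 1 library of each genotype litter 5 has no spread of its own, and the other litters supply it, so the values are a description and a p that misses the threshold says nothing of the pattern. The difference was 0.88 for Dnmt1 (adjusted p = 0.329), 0.64 for Uhrf1 (0.380), 0.38 for Dnmt3a (0.496), 0.82 for Dnmt3b (0.448) and 0.23 for Mbd1 (0.690). No member passed, where 0.0217% of all genes did, and the median of all genes in this contrast was 0.21. A test of whether the genotype difference in litter 1 departs from that in litters 3 and 5 called 0% of tested genes in limma. An unadjusted limma p under 0.05 was found for 687 of 13833 genes, close to the share that this threshold gives by itself.

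Litter 3 differed from litter 1 in 4 of the 5 genes. Dnmt1, Uhrf1, Dnmt3a and Mbd1 were lower, and Dnmt3b did not pass the test. These counts stand against a background in which 31.6% of all 13833 tested genes were called in limma, 25.8% lower and 5.80% higher in litter 3, with a median over all genes of -0.16. Dnmt1 averaged 65.9 ± 9.79 TPM in litter 3 and 122 ± 16.5 TPM in litter 1 (SD, n = 3 and n = 5). The log2 difference was -0.89 (SE 0.16, 95% interval -1.25 to -0.53, limma adjusted p = 0.00474). Uhrf1 averaged 123 ± 16.3 TPM in litter 3 and 198 ± 23.5 TPM in litter 1, a log2 difference of -0.68 (SE 0.13, limma adjusted p = 0.00612).

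Dnmt3a averaged 57.3 ± 1.70 TPM in litter 3 and 84.7 ± 7.81 TPM in litter 1, a log2 difference of -0.57 (SE 0.10, limma adjusted p = 0.00455). Mbd1 averaged 23.3 ± 1.82 TPM in litter 3 and 30.5 ± 2.95 TPM in litter 1, a log2 difference of -0.39 (SE 0.10, limma adjusted p = 0.0195). For these 4 genes every library of litter 3 lay below every library of litter 1. The share of all genes separated in this way was not computed, and 25.8% of all tested genes were called lower. The call of Mbd1 was lost without WT 1 (log2 difference -0.34, limma adjusted p = 0.0623), WT 2 (-0.39, 0.0516) or WT 3 (-0.32, 0.0693), and after quantile normalization (-0.16, 0.216). Quantile normalization moved the median of all genes to -0.0057, and Dnmt1 (-0.72), Uhrf1 (-0.55) and Dnmt3a (-0.37) still passed. Dnmt3b averaged 5.49 ± 2.11 TPM in litter 3 and 5.00 ± 0.776 TPM in litter 1, and the litters overlapped (log2 difference 0.11, SE 0.21, 95% interval -0.37 to 0.59, limma adjusted p = 0.736).

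Other cell types moved with the litter. Of the progenitor markers 6 of 8 were lower in litter 3, with a summed level of 2481 to 2688 TPM in litter 3 and 3349 to 3663 TPM in litter 1. Of the neuron markers 5 of 6 were lower, with 794 to 924 TPM in litter 3 and 1238 to 1629 TPM in litter 1. Mesenchymal and meningeal markers were higher in 6 of 7, at 417 to 986 TPM in litter 3 and 200.5 to 316 TPM in litter 1. Erythroid genes were higher in 7 of 8, at 3.88% to 5.38% of all TPM in litter 3 and 1.69% to 1.91% in litter 1. No marker of these 4 lists was at 0 in any library, and none passed between cKO and WT in limma. By genotype the progenitor sum was 2688 to 3663 TPM in cKO and 2481 to 3447 TPM in WT, and the mesenchymal sum was 200.5 to 417 TPM in cKO and 279.6 to 986 TPM in WT. The part of these cells in the litter difference of the 5 genes was not tested, and in bulk tissue fewer cells of a type and less RNA per cell cannot be told apart.

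Transcript length moved with the litter as well. Over all tested genes the median litter 3 minus litter 1 difference was 0.14 in the eighth with the shortest transcripts, where 2.66% of genes were called lower. It was -0.50 in the eighth with the longest, where 52.5% were lower. The longest coding transcripts of the 5 genes were 5870 bases for Dnmt1, 3586 for Uhrf1, 9685 for Dnmt3a, 4320 for Dnmt3b and 3920 for Mbd1. Among 5077 genes with transcripts between these extremes 41.5% were called lower in litter 3, with a median of -0.35. In the eighth of length that holds each gene the median was -0.35 for Dnmt1 (own difference -0.89), -0.21 for Uhrf1 (-0.68), -0.50 for Dnmt3a (-0.57), and -0.27 for Mbd1 (-0.39) and Dnmt3b (0.11). Dnmt1 and Uhrf1 thus lay farthest below genes of their length, and Dnmt3b lay above.

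**Figure D2:**
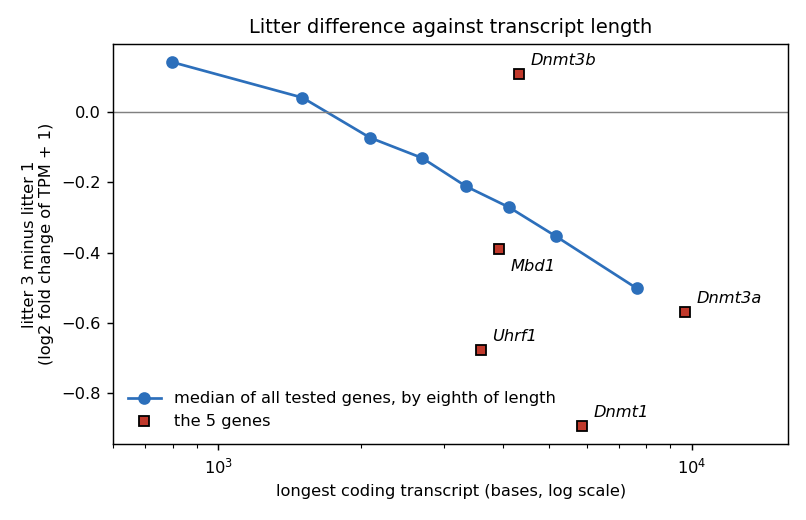
Litter 3 minus litter 1 log2 fold change of TPM + 1 (y axis) against the length of the longest coding transcript (x axis, log scale), for the median of all tested genes in eighths of length (circles) and for the 5 genes (squares). The median runs from 0.14 to -0.50, and Dnmt1 (-0.89) and Uhrf1 (-0.68) lie farthest below the line.

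The trend with length was removed from each library by subtracting a loess curve, an analysis chosen after the data were seen. The background was then 16.8% of 13820 genes called, 9.29% lower and 7.49% higher in litter 3. Dnmt1 still passed at a log2 difference of -0.49 (limma adjusted p = 0.0130) and Uhrf1 at -0.44 (0.0173). For Dnmt1 the trend-free log2 level was 6.29 ± 0.121 in litter 3 and 6.77 ± 0.119 in litter 1, and for Uhrf1 it was 7.09 ± 0.122 in litter 3 and 7.53 ± 0.137 in litter 1 (SD, n = 3 and n = 5). Dnmt3a did not pass (-0.012, limma adjusted p = 0.902), nor did Mbd1 (-0.13, 0.334) or Dnmt3b (0.40, 0.161). The correlation across genes, which are not independent replicates, of a library's deviation from the gene means with log2 length was -0.176 in cKO 4, -0.254 in WT 3 and -0.310 in WT 4. It was -0.350 in cKO 5 and 0.0620 in WT 5, and 0.0148 to 0.368 in the 5 libraries of litter 1.

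**Figure D3:**
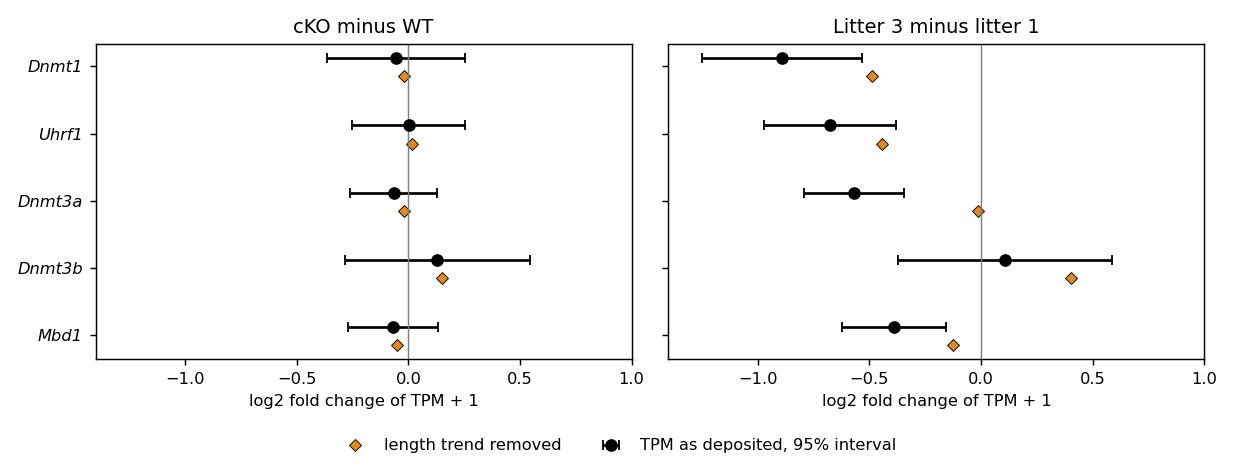
Log2 fold change of TPM + 1 for each gene (x axis), cKO minus WT on the left and litter 3 minus litter 1 on the right, with circles and bars for the limma estimate and its 95% interval and diamonds for the estimate with the length trend removed. All 5 genotype intervals include 0, and on the right Dnmt1 (-0.49) and Uhrf1 (-0.44) stay below 0 as diamonds while Dnmt3a is at -0.012.

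Litter 5, with 1 library of each genotype, lay between the others and no member passed against litter 1, where 0.0217% of all genes were called. The log2 difference was -0.56 for Dnmt1 (SE 0.18, limma adjusted p = 0.179), -0.50 for Uhrf1 (SE 0.15, 0.170) and -0.28 for Dnmt3a (SE 0.11, 0.226). It was 0.077 for Dnmt3b (SE 0.24, 0.888) and -0.11 for Mbd1 (SE 0.12, 0.638). Without WT 5, which leaves cKO 5 as the lone library of its litter, Dnmt1 (-0.85, limma adjusted p = 0.0446) and Uhrf1 (-0.71, 0.0480) passed, among 1084 called genes. Without cKO 5 the differences were -0.25 for Dnmt1 (limma adjusted p = 0.943) and -0.27 for Uhrf1 (0.930). The lone library is assumed in each case to vary like the others.

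Across the 10 libraries Dnmt1, Uhrf1 and Dnmt3a were high and low in nearly the same libraries, Dnmt3a over a narrower range. The Pearson r of log2(TPM + 1), given as a description, was 0.991 for Dnmt1 with Uhrf1, 0.982 for Dnmt1 with Dnmt3a and 0.957 for Uhrf1 with Dnmt3a. Mbd1 followed them at 0.822 to 0.881, and Dnmt3b stood apart at 0.0342 to 0.190 with each of the others. These r values share the libraries and the litters, and 14.3% of all tested genes had an r of 0.9 or more with Dnmt1, 12.8% with Uhrf1 and 13.2% with Dnmt3a. For Mbd1 the share was 2.44% and for Dnmt3b 0.0217%. With the length trend removed, the log2 level of Dnmt3a ranged only from 6.13 in cKO 3 to 6.29 in cKO 5. Dnmt1 was then at 6.86 in cKO 3, its highest, and at 6.34 in cKO 5. Dnmt3a thus no longer followed Dnmt1 in these libraries, and r between the genes was not computed in this setting.

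The genes most like each of the 5 in pattern over the 10 libraries were named by r alone. For Dnmt1 they were Baz2a (0.997), a subunit of a nucleolar remodelling complex, Chd4 (0.996), the ATPase of NuRD, and Sfpq (0.995), a splicing factor. For Uhrf1 they were Sf3b3 (0.997), a splicing factor subunit, Ankrd17 (0.996) and Lrpprc (0.996), a mitochondrial RNA-binding protein. For Dnmt3a they were Arid2 (0.998) and Bptf (0.995), subunits of chromatin remodellers, and Ctnna1 (0.995), alpha-catenin. Mbd1 was most like Plxnb1 (0.979), a semaphorin receptor, Sars2 (0.971), a mitochondrial tRNA synthetase, and Cnot3 (0.961), a subunit of a deadenylase complex. Dnmt3b was most like Gm28042 (0.942), Crybg3 (0.902) and Chuk (0.897), a kinase of the NF-kappa-B pathway.

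Since Dnmt1 and Uhrf1 act at replicating DNA, the 5 genes were set beside an S-phase level, the mean log2(TPM + 1) of 23 replication genes such as the Mcm helicase subunits. That level was 6.68, 6.55, 6.73, 6.43 and 6.46 in cKO 1 to cKO 5, against 6.67, 6.71, 6.21, 6.35 and 6.58 in WT 1 to WT 5. It was lowest in litter 3 and overlapped between genotypes. Of the 23 genes 15 were lower in litter 3, with a median of -0.42, against 25.8% of all genes lower. With the length trend removed 12 were lower and 3 higher, against 9.29% of all genes lower and 7.49% higher. Between genotypes 0 of 23 passed.

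Dnmt1 rose and fell with the S-phase level over the 10 libraries (Pearson r = 0.966, Spearman rho = 0.952, permutation p = 1e-05 for r, the smallest that the resamples can give, and 9e-05 for rho). Uhrf1 did so too (r = 0.962, rho = 0.964, permutation p = 5e-05 and 0.00015). Among all tested genes outside the list 1.59% had an r at least as high as Dnmt1 and 2.12% as high as Uhrf1, where the median r was 0.405. Centred on litter, r was 0.892 for Dnmt1 and 0.950 for Uhrf1 (permutation p = 0.0008 and 5e-05 for r). With the length trend removed from genes and level alike r was 0.903 and 0.908. The permutations here and in the next paragraph moved libraries freely across litters. The levels differ by litter, so these p-values can be too small. Without WT 3 and WT 4, the libraries farthest from the median, r was 0.966 for Dnmt1 and 0.955 for Uhrf1. The litters hold too few libraries for a value within each, and 5 such relations were computed.

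Dnmt3a had an r as high at first (r = 0.949, rho = 0.952, permutation p = 2e-05 and 0.00013), which 4.27% of genes reached. It was 0.968 without WT 3 and WT 4 and -0.267 with the length trend removed. Centred on litter, Dnmt3a had r = 0.732 and rho = 0.600 (permutation p = 0.0171 and 0.0734), so rho no longer passed. Mbd1 had r = 0.902 (rho = 0.818, permutation p = 0.00029 and 0.00609), which 11.9% of genes reached, and 0.472 with the length trend removed. Centred on litter, Mbd1 had r = 0.642 and rho = 0.467 (permutation p = 0.0464 and 0.178), and without WT 3 and WT 4 r = 0.743 and rho = 0.643 (0.0373 and 0.0958), so rho passed in neither. Dnmt3b had r = 0.219 (rho = 0.188, permutation p = 0.546 and 0.608), which 58.2% of genes reached. Its r was -0.369 without WT 3 and WT 4, so its sign changed with the libraries. Centred on litter, Dnmt3b had r = 0.783 and rho = 0.782 (permutation p = 0.00524 and 0.0101).

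**Figure D4:**
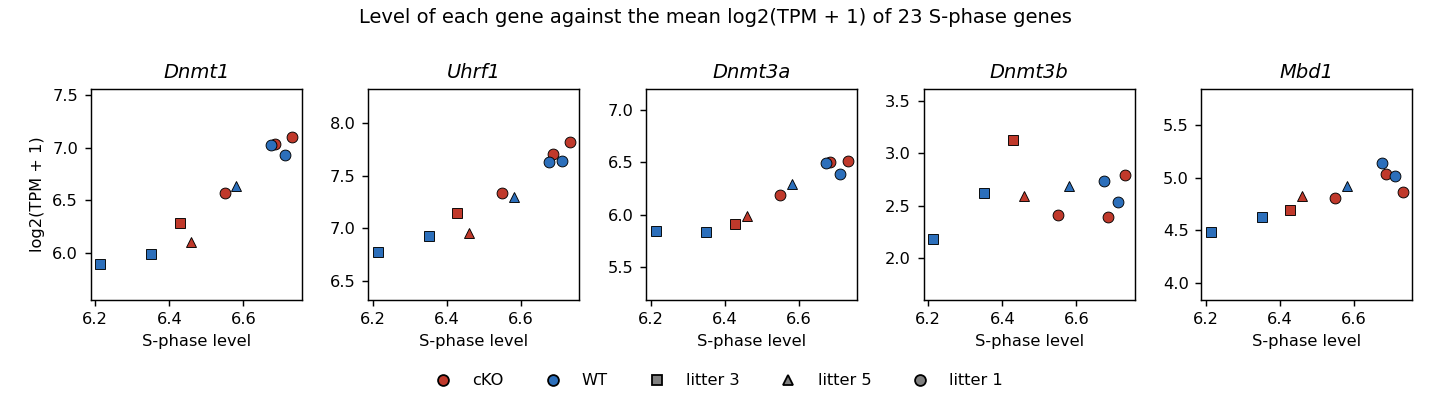
Level of each gene (y axis, log2(TPM + 1), a span of the same size in each panel) against the S-phase level (x axis, mean log2(TPM + 1) of 23 genes) in the 10 libraries, with genotype by colour and litter by symbol. Dnmt1 (r = 0.966) and Uhrf1 (r = 0.962) climb along the axis in both genotypes, and Dnmt3b (r = 0.219) does not.

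The rest of the pathway was read through lists of partners. No gene of any list passed between cKO and WT in limma (adjusted p = 0.99973), so the following are values that did not pass. Of 10 other methyl-CpG binding proteins, Mbd2, a NuRD subunit that binds methylated DNA, had 30.8 ± 2.34 TPM in cKO and 27.4 ± 2.89 TPM in WT. Its log2 difference was 0.20 with an unadjusted limma p of 0.0485. An unadjusted limma p under 0.05 was found for 324 of 13833 genes between cKO and WT. Zbtb4 differed by -0.29 and Uhrf2, the paralog of Uhrf1, by -0.11. Of 9 partners of maintenance methylation, Hells, a remodeller needed for methylation of repeats, had 80.3 ± 12.2 TPM in cKO and 83.1 ± 13.1 TPM in WT (-0.12). Usp7, a deubiquitinase that binds Dnmt1 and Uhrf1, differed by -0.093 and Hdac1 by -0.072.

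Of the 5 enzymes that methylate histone H3 at lysine 36, a mark read by the de novo methyltransferases, Setd2 differed between cKO and WT by -0.15, Ash1l by -0.13 and Nsd3 by -0.068. Of 15 genes of heterochromatin and KRAB repression, Morc3 had 23.9 ± 12.6 TPM in cKO and 15.4 ± 1.75 TPM in WT, and 1 library reached 44.7 TPM. Zfp57, which protects imprints, differed by 0.12 and Morc2a by 0.080. Of 13 tested genes of the methyl donor cycle, Slc19a1, the folate carrier, differed by 0.12, Mtr by -0.15 and Shmt2 by -0.071. Trdmt1, an RNA methyltransferase of the Dnmt family, differed by 0.091. Of the S-phase genes Slbp differed by -0.083, Ccne2 by 0.11 and Gins1 by 0.054.

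Against litter 1, litter 3 was lower in many partners and higher in none, in a background of 25.8% of genes lower. All 5 H3K36 methyltransferases were lower, with a median of -0.78, among them Nsd2 at 103 ± 11.4 TPM in litter 3 and 180.0 ± 13.5 TPM in litter 1 (log2 difference -0.82, limma adjusted p = 0.00290). Of the heterochromatin list 11 of 15 were lower (median -0.47) and of the maintenance partners 5 of 9 (median -0.28), with Lig1, the ligase that joins replicated DNA and recruits Uhrf1, at -0.57 (limma adjusted p = 0.00381). Of the other methyl-CpG binding proteins 4 of 10 were lower, with Mbd5 at -0.71 and Mbd6 at -0.63 as examples. Of the methyl donor cycle 2 of 13 were lower, Mthfd1 and Shmt2. With the length trend removed, where 9.29% of all genes were lower, the counts were 1 of 5, 3 of 15, 1 of 9, 1 of 10 and 1 of 13 in the order of these lists. The last 3 of these are close to the share of all genes.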

How the data were processed

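Per the labels' protocols, RNA of embryonic cortex was extracted with RNeasy and polyadenylated RNA was sequenced. The authors deposited TPM for 24814 genes in 10 libraries. Per the submitters' processing notes, the authors worked with cutadapt, featureCounts, DESeq2 and mm10, with no versions or roles given. The aligner and the tool behind the TPM are not given in the sources used here. The series text speaks of 3 cortices for each condition and 2 litters, unlike the sample labels, which were followed. The authors' deposited table of 7 genes, with log2 fold changes, p-values and score columns for the error and the test statistic, holds none of the 5 genes and was not used. A further 5 unnamed columns of the TPM table, with 4 values each, were not used. Gene identifiers were matched to GENCODE M21, which held 24774 of them.

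TPM keeps no read depth, so no counting interval could be given, and the number of genes above 0 ranged from 18991 to 19944 per library. Genes with at least 1 TPM in at least 5 libraries were tested, 13833 in all, as log2(TPM + 1), which understates changes of low genes. All 5 genes passed this filter. Genotype and litter were terms of a linear model in limma 3.58.1 (R 4.3.3), moderated by empirical Bayes with a trend and with 6 residual degrees of freedom. Its p-values are two-sided and were adjusted by Benjamini-Hochberg over all tested genes. The model was also run on simulated data, and the outcome is not given here. Single genes were compared by exact permutation tests, and correlations by permutation tests. Copies were searched with blastn 2.17.0. Of each list, the 3 genes with the smallest genotype p-value are named, and so are the 3 genes most like each of the 5. Genes named for the litter comparison beyond these were chosen after their values were seen. The genes and lists were chosen with earlier results of these data known. Each library is labelled as 1 animal, so the spread behind each p-value is that between animals. The litter comparisons set single litters side by side, so their p-values hold no spread between litters. The alternatives were other pseudocounts, filters, normalizations, weights and covariates, a replicate block, subsets of litters, each library left out and the length trend removed.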

Additional observations from a re-analysis of the deposited data

Results flagged for a closer look

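In TPM as deposited, the genotype difference of each of the 5 genes had opposite signs in litters 3 and 5. Each of these litters held 1 cKO library, which drew attention to it. The cKO minus WT log2 difference in litter 3 and in litter 5 was 0.35 and -0.53 for Dnmt1, 0.30 and -0.34 for Uhrf1, 0.072 and -0.30 for Dnmt3a, 0.72 and -0.093 for Dnmt3b, and 0.14 and -0.088 for Mbd1. With 1 library of each genotype in litter 5 and 1 cKO library in litter 3, the design does not allow a test of this pattern that rests on spread within both litters. The cKO 5 and WT 5 libraries also differed in tissue markers and in transcript length balance, as given above. With the length trend removed, the log2 level in cKO 5 and WT 5 was 6.29 and 6.19 for Dnmt3a. It was 2.75 and 2.63 for Dnmt3b and 4.97 and 4.86 for Mbd1, so these 3 genes turned in sign. Dnmt1 (6.34 and 6.57) and Uhrf1 (7.08 and 7.25) did not. In litter 3 Dnmt3a was then lower in cKO 4 (6.13) than in WT 3 (6.26) and WT 4 (6.17). By Dixon's criterion no library stood apart in any of the 5 genes within cKO, WT or litter 1.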

How the results depend on the processing

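Of 380 values recomputed under alternatives, 320 kept their direction and their side of the threshold or stayed within 1.5 times the main count. No alternative called any of the 5 genes between cKO and WT. The count of called genes between cKO and WT was 3 with a filter of 5 TPM, 3 with the Xist level as a term, 1 within litter 1, 3 within litters 3 and 5, and 3 to 5 with 1 library left out (3 without cKO 1, cKO 3, cKO 5, WT 2, WT 3 or WT 5). The small cKO minus WT differences turned in sign under some settings. Without a litter term they were 0.12 for Dnmt1, 0.049 for Dnmt3a and 0.0088 for Mbd1. With array weights they were 0.027 for Dnmt1 and 0.0055 for Dnmt3a. With the Xist level, which follows sex, as a term Dnmt1 was at -0.27, Dnmt3a at -0.20 and Uhrf1 at -0.16 (limma adjusted p = 0.852 for each). The main fit gave -0.055, -0.065 and 0.0013. The part of sex in the genotype differences was not tested further. Uhrf1 was at -0.0061 without globin and mitochondrial genes and -0.020 in litter 1, Dnmt3b at -0.11 in litter 1, and Mbd1 at 0.043 in litters 3 and 5. With 1 library left out Dnmt1 ranged from -0.21 to 0.073, Uhrf1 from -0.11 to 0.093, Dnmt3b from -0.10 to 0.22, Dnmt3a from -0.12 (without cKO 4) to -0.00081 (without cKO 5 or WT 5) and Mbd1 from -0.15 to -0.019.

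Libraries of the same number share only the number: their deviations correlated at -0.291 to 0.303, and 1 of 10 libraries was most like its own number. With the replicate block in place of litter 2 genes were called, and Dnmt1 was at 0.12, Dnmt3a at 0.049 and Mbd1 at 0.0088. With the replicate block beside litter 3 genes were called, and Uhrf1 was at -0.090 and Dnmt3b at -0.016.

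Between litters 3 and 1 the count of called genes was 2319 with the length trend removed and 2585 to 4524 with 1 library left out, lowest without WT 3. Dnmt3a was at -0.012 with the length trend removed, Mbd1 at -0.13 with it removed and -0.16 after quantile normalization. With 1 library left out Mbd1 ranged from -0.51 to -0.32 and Dnmt3b from -0.23, without cKO 4, to 0.31. Dnmt1, Uhrf1 and Dnmt3a passed without any 1 library. Between litters 5 and 1 the count was 0 to 1084 with 1 library left out: 1084 without WT 5, 14 without cKO 4, 1 without cKO 1 and 0 without WT 2. In the full fit 2659 genes had an unadjusted limma p under 0.05. Over the same settings Dnmt1 ranged from -0.85 to -0.25, Uhrf1 from -0.71 to -0.27 and Dnmt3b from -0.059 to 0.22. Mbd1 was at 0.014 after quantile normalization and 0.041 with the length trend removed, and Dnmt3a at 0.044 with it removed.

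For the correlation with the S-phase level, the length trend removed gave -0.267 for Dnmt3a, -0.301 for Dnmt3b and 0.472 for Mbd1. Dnmt3b was at -0.369 without 2 libraries and 0.783 centred on litter. The cause of these changes was not tested. Depth is unknown, and the 3 and 2 libraries of litters 3 and 5 limit the precision.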

Other observations

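Germline genes that promoter methylation is known to keep silent in somatic tissue were near 0 in both genotypes. Of 18 such genes 13 had a row and none reached the filter. Their summed level was 0.91 to 1.81 TPM in cKO and 0.88 to 2.90 TPM in WT. The highest single value was 1.38 TPM, of Brdt, which averaged 0.546 TPM in cKO and 0.706 TPM in WT. Dazl, a germ cell RNA-binding protein, did not exceed 0.27 TPM, nor Ddx4, a germ cell helicase, 0.45 TPM. The other genes without a row were not analysed here.

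The balance of the de novo enzymes was read after the values were seen and is given as a description. Dnmt3b stood at 6.30% to 13.1% of the Dnmt3a level in TPM in litter 3, 7.02% to 8.05% in litter 5 and 4.72% to 6.60% in litter 1. Against Dnmt1 it stood at 6.10% to 10.1% in litter 3, 5.50% to 7.40% in litter 5 and 3.27% to 4.59% in litter 1. The shares of litter 3 and litter 1 overlapped for Dnmt3a and not for Dnmt1. Dnmt1 itself was called lower in litter 3, as were 25.8% of all tested genes. How many genes would separate from Dnmt1 in this way was not computed.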
